A study of Mus musculus with 17 samples.

Results

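The 10 genes described here are classical transcriptional targets of glucocorticoids together with the receptor itself: Nr3c1, Fkbp5, Tsc22d3, Sgk1, Klf9, Ddit4, Mt1, Mt2, Errfi1 and Cdkn1a. They were taken by symbol, through the GENCODE annotation, from a table of 55359 genes by their known role, and the rule itself uses no measured value, although earlier results of these data were known when the genes were chosen. All 10 had enough counts to be tested in each organ. RNA came from testes and from forebrain, which includes the hippocampus and is named hippocampus in the sample labels. The tissue came from male pups of the Ocn GK strain at postnatal day 1. In this strain osteocalcin, a hormone made by bone, was inactivated by homologous recombination in embryonic stem cells, so that the loss is present in every cell from conception. Testes were sequenced from 2 WT, 3 Ocn+/- and 3 Ocn-/- pups, and forebrains from 3 pups of each genotype. WT pups were born from WT mothers, whereas both the Ocn+/- and the Ocn-/- pups were born from Ocn-/- mothers. The genotype of the pup, the genotype of the mother and the litter therefore cannot be told apart in any comparison with WT. The litters are not given in the sources used here, and p-values measure the spread between these libraries.

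The counts of a library summed to between 7302401 and 8289015 in testes and to between 6518151 and 14621584 in forebrain. The third WT forebrain stood apart from the other 8, with the smallest total and with 5.34% of its counts on mitochondrial genes, against 2.4% to 3.18%. Its mean rank correlation with the other forebrains was 0.9798, against 0.9869 to 0.9887, and forebrain counts are therefore also given without it. The targeted gene could not check the labels, because Bglap held 0 to 2 counts in a testis and 0 to 5 in a forebrain, and Bglap2 held 0 in every library. Neuronal and Sertoli cell markers fitted the organs. Neuronal markers summed to 2660 to 3240 CPM, that is counts scaled to a common library size, in forebrains and to 25.7 to 45.3 CPM in testes. Sertoli cell markers summed to 1720 to 2650 CPM in testes and to 53.8 to 69.9 CPM in forebrains. Oligodendrocyte lineage markers went the other way, at 785 to 1170 CPM in testes and 224 to 289 CPM in forebrains.

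Corticosterone, the main glucocorticoid of mice, enters cells and binds the glucocorticoid receptor, which is held in the cytoplasm by chaperones. The bound receptor moves into the nucleus and binds, mostly as a dimer, an inverted repeat of AGAACA known as the glucocorticoid response element. Nearby genes are then induced, and several of them limit the signal in turn. Fkbp5 is a co-chaperone that lowers the affinity of the receptor for its ligand, and Tsc22d3 encodes GILZ, which mediates anti-inflammatory actions. Most of these genes also answer to other signals, such as growth factors (Sgk1), low oxygen and low energy (Ddit4), zinc and other metals (Mt1 and Mt2) and p53 (Cdkn1a).

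The response elements themselves were looked up in GRCm39 around the start site of the canonical GENCODE transcript, since they are the sequences by which the pathway would reach these genes. The full element, AGAACA and TGTTCT with 3 bases of any kind between them, occurred within 5000 bases of the start site in 27 of 21757 coding genes (0.124%), and Sgk1 was one of them. A looser palindrome, GNACA and TGTNC at the same spacing with N for any base, occurred in the same window in 15.5% of coding genes and in 5 of the 10 described here, namely Fkbp5, Sgk1, Mt1, Mt2 and Cdkn1a. Both motifs were searched on both strands and overlap each other in Sgk1. The matches are printed 5′ to 3′ along the strand of the gene, with the matched bases in capitals. They lie 965 bases upstream of the start site for Sgk1, 87 bases upstream for Mt1, 968 bases upstream for Mt2, and downstream of it within an intron for Fkbp5 and Cdkn1a.
Sgk1, chr10:21869600-21869614: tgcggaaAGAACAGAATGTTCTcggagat
Mt1, chr8:94905623-94905635: actatagGGACATGATGTTCcacacgt
Mt2, chr8:94898164-94898176: gctgcgaGGACAGCCTGTCCtgttaca
Fkbp5, chr17:28703927-28703939: gggctcgGGACAGGGTGTACagcgctt
Cdkn1a, chr17:29313674-29313686: ttggcggGCACAGTATGTTCccaggga
The Sgk1 match lies in an intron of longer Sgk1 transcripts. One further match lies between Mt2 and Mt1, in the windows of both. In the 250 bases upstream of the start site the palindrome was present in 0.299% of coding genes, Mt1 among them.

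The pair of metallothionein genes, Mt1 and Mt2, lies close together on the plus strand of chromosome 8 and is also served by metal response elements, bound by the zinc-sensing factor MTF1. TGCACNC or TGCGCNC, on either strand, occurred in the 250 bases upstream of 21.9% of coding genes. The window of Mt1 is shown whole because it holds both kinds of element, with the palindrome as the first stretch in capitals and a metal element 16 bases upstream of the start as the second.
Mt1, chr8:94905460-94905709: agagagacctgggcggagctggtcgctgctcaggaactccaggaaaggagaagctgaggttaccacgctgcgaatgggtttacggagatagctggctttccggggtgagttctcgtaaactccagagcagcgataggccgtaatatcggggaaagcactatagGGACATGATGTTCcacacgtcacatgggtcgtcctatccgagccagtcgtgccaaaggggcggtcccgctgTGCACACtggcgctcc
Mt2 carried 2 metal elements, 109 and 14 bases upstream of its start.
Mt2, chr8:94899023-94899029: tcgcctcTGCACCCggcccct
Mt2, chr8:94899118-94899124: gacccttTGCGCTCagctcct
Tsc22d3 and Ddit4 each held 1 such match. Metal elements were not searched for downstream of the annotated start or further upstream, so these counts and distances hold for this window and this start only. A match describes the letters only, and whether any factor binds there in these organs was not measured.

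Levels were compared between the genes per kilobase of annotated exon, as CPM per kb. The length merges the exons of all annotated transcripts of a gene, 1246 bases for Mt1 and 11066 for Fkbp5. It is not the length of the mRNA present, and the order of the genes depends on it. In testes Ddit4, an inhibitor of mTORC1 signalling, had the highest mean level, at 27.9 CPM per kb (SD 4.3, n = 8), and Cdkn1a, which encodes the cell cycle inhibitor p21, the lowest, at 1.17 CPM per kb (SD 0.381). The others followed in the order Mt2 (18.2), Fkbp5 (17.4), Mt1 (14), Nr3c1 (10.1), Errfi1 (7.87), Tsc22d3 (7.28), Klf9 (5.07) and Sgk1 (5.06). Every neighbouring pair in this order overlapped in its range over libraries, apart from Sgk1 and Cdkn1a. The order pools the genotypes. In WT testes alone (n = 2) Mt2 (8.91) and Mt1 (6.8) stood below Fkbp5 (15.7), Nr3c1 (12.2), Errfi1 (11.1), Klf9 (9.71) and Tsc22d3 (8.93 CPM per kb). In forebrain Ddit4 (19.8), Mt1 (18.7) and Mt2 (18.6 CPM per kb, n = 9 each) led with overlapping ranges. They were followed, without overlap, by Sgk1 at 8.54 CPM per kb, and then by Klf9 (5.84), Fkbp5 (4.82), Tsc22d3 (4.5), Cdkn1a (4.45), Errfi1 (4.09) and Nr3c1 (3.45), all overlapping with their neighbour. With the genotypes pooled the receptor thus held the lowest mean of the 10 in forebrain and the fifth in testes. In WT testes alone only Ddit4 (28.5) and Fkbp5 (15.7) stood above it (12.2 CPM per kb).

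**Figure D1:**
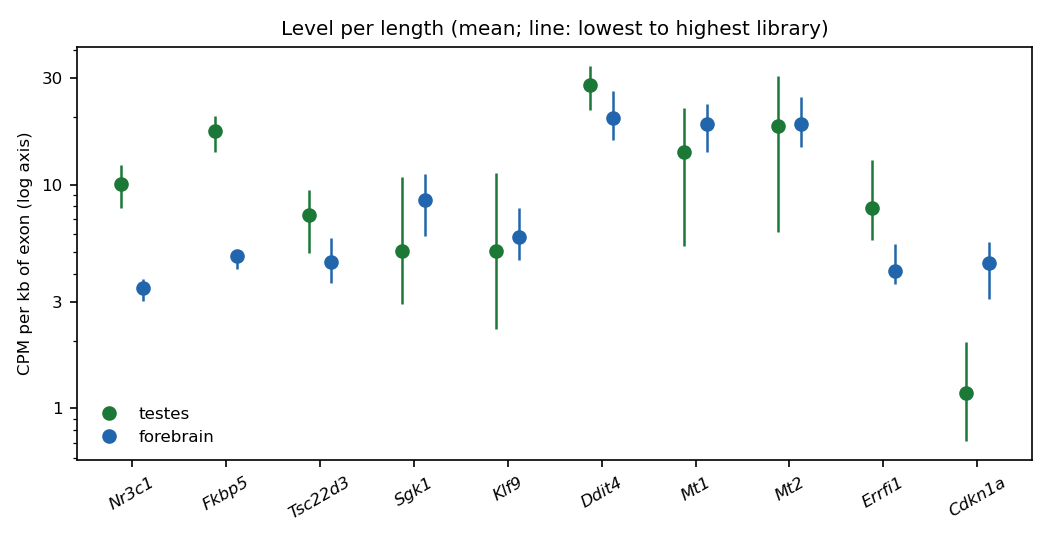
Level of each gene in CPM per kb of exon on a log axis, in testes (green, n = 8) and forebrain (blue, n = 9), with points for the mean and lines from the lowest to the highest library. Nr3c1 and Fkbp5 stood higher in testes, and Cdkn1a stood higher in forebrain.

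In the joint fit of all 17 libraries, which averaged the genotypes, 84.4% of the genes tested differed between the organs (edgeR, adjusted p under 0.05), and 9 of the 10 glucocorticoid-induced genes did. Fkbp5 was higher in testes with a log2 fold change of 1.51 (SE 0.0698, adjusted p = 3.05e-16), as were Nr3c1 with 1.24, Errfi1 with 0.66 and Tsc22d3 with 0.39. Cdkn1a was lower in testes with -2.21 (SE 0.135, adjusted p = 1.12e-13), as were Sgk1 with -1.08, Mt1 with -0.95, Mt2 with -0.56 and Klf9 with -0.55. With library size alone as the scaling the value for Mt2 was -0.25 (adjusted p = 0.0809). These averages hide differences between genotypes. In CPM, scaled within each organ, Klf9 had means of 79.8 in WT testes and 60.2 in WT forebrains. Mt2 had 8.47 and 19.5 CPM in WT, 24.1 and 18.5 CPM in Ocn+/-, and 16.3 and 15 CPM in Ocn-/- testes and forebrains. Mt1 had 23.5 and 23.7 CPM in Ocn+/- testes and forebrains. Ddit4 had a log2 fold change of 0.18 (95% interval 0 to 0.36, adjusted p = 0.0567), and it passed in 9 of 23 alternatives, with 0.5 (adjusted p = 3.6e-05) under library size alone. The mineralocorticoid receptor Nr3c2, which binds the same hormone with higher affinity, was 12.5-fold lower in testes, where WT libraries held a mean of 2.7 CPM against 24.1 CPM in forebrain. Hsd11b2, which inactivates corticosterone, showed the opposite order, with 13 to 30.8 CPM in testes and 0 to 6 counts in a forebrain library. Hsd11b1, which regenerates the active hormone, was low in both, at 0 to 11 counts in a testis and 5 to 28 in a forebrain.

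The comparison with WT in testes asked whether glucocorticoid-induced genes differ in pups that lack osteocalcin from their mother and partly or wholly from themselves. Klf9, Sgk1 and Errfi1 fell in the testes of the mutant pups, and Mt1 and Mt2 rose. The receptor Nr3c1 and the reporter Tsc22d3 passed only under some of the alternatives tried, and Fkbp5 passed under none of them. With Ocn+/- and Ocn-/- averaged and set against WT, 5 of the 10 genes were called, 3 lower and 2 higher, while 9.94% of all 16361 genes were called, 5.43% lower and 4.51% higher. Their median log2 fold change was -0.4, against 0 over all genes. Of all calls 45.4% were higher, and 65.5% were when libraries were scaled by size alone. In whole organs such as these, fewer cells of a type and less RNA per cell cannot be told apart. By genotype, 5 genes were called in Ocn+/- testes (background 8.25%) and 3 in Ocn-/- testes (background 5.64%), the latter all lower, as were 3.09% of all genes. With only 2 WT testes the calls leaned on each of them: with either left out, fewer of the 10 genes and fewer of all genes were called. Such a fit leaves 1 WT library.

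Klf9 (ENSMUSG00000033863.3, chr19:23118187-23148497, plus strand), a zinc finger transcription factor, had the lowest fold change of the 10. Its levels were 66.6 and 93 CPM in the WT testes, 24.6, 36.1 and 37.7 CPM in the Ocn+/- testes, and 26.6, 30.5 and 18.6 CPM in the Ocn-/- testes. All 6 mutant libraries lay below both WT libraries. The log2 fold change was -1.28 (SE 0.223, adjusted p = 0.0063) in Ocn+/-, -1.66 (SE 0.225, adjusted p = 0.00145) in Ocn-/- and -1.47 (SE 0.19, adjusted p = 0.000681) in both together, a level 2.78-fold lower than in WT. With both genotypes together it kept its call in all 14 alternatives tried, each testis left out in turn among them, with adjusted p from 1.19e-23 to 0.0249. The call in Ocn+/- was lost without WT 2 (-1, adjusted p = 0.0977).

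Sgk1 (ENSMUSG00000019970.16, chr10:21758083-21875802, plus strand) encodes a kinase that regulates ion channels and transporters, and it carries the full response element shown above. It was measured at 41.1 and 64.9 CPM in WT testes. In the Ocn+/- testes it stood at 17.7, 27.8 and 28.6 CPM, and in the Ocn-/- testes at 21.3, 22.2 and 20 CPM. All mutant libraries lay below both WT libraries. The Ocn+/- libraries enclosed the 3 Ocn-/- libraries, which lay close together. The log2 fold change was -1.21 (SE 0.185, adjusted p = 0.00112) for both mutant genotypes together, or 2.32-fold lower, and it was -0.83 with an adjusted p of 0.123 when WT 2 was left out.

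Errfi1 (ENSMUSG00000028967.11, chr4:150938376-150955402, plus strand) encodes an inhibitor of the EGF receptor. Its levels were 54.7 and 76.6 CPM in WT, 39.1, 33.3 and 47.3 CPM in Ocn+/- and 42.4, 38.5 and 40.9 CPM in Ocn-/- testes. Again all mutant libraries were below both WT libraries, with a log2 fold change of -0.71 (SE 0.148, adjusted p = 0.0083). Without WT 2 it was -0.42 with an adjusted p of 0.349. Egfr, the receptor that Errfi1 restrains, fell as well in testes, by 0.68 on the log2 scale (SE 0.115, adjusted p = 0.00218).

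Mt1 (ENSMUSG00000031765.9, chr8:94905710-94906955) and Mt2 (ENSMUSG00000031762.8, chr8:94898819-94900207), which encode small proteins that bind zinc and copper, rose. Mt2 was measured at 5.83 and 11.1 CPM in WT testes, at 29.1, 18 and 25.3 CPM in Ocn+/- and at 14, 15.7 and 19.2 CPM in Ocn-/- testes. Every mutant library was above both WT libraries, and 2 of the 3 Ocn-/- libraries were below all Ocn+/- libraries. Mt1 stood at 6.61 and 10.3 CPM in WT, at 23, 20.2 and 27.4 CPM in Ocn+/- and at 18.6, 9.43 and 23.8 CPM in Ocn-/- testes, where the second Ocn-/- library overlapped with WT. In both mutant genotypes together Mt2 rose 2.34-fold (log2 fold change 1.22, SE 0.26, adjusted p = 0.0097) and Mt1 2.37-fold (1.25, SE 0.319, adjusted p = 0.0307). In Ocn-/- testes alone neither passed in edgeR, with 0.94 (adjusted p = 0.062) and 1.02 (adjusted p = 0.1), whereas DESeq2 called both (adjusted p = 0.0249 and 0.0268), as did edgeR without the filter on low counts. Both rest on 45 to 88 counts in a WT library, and without WT 1 neither was called (Mt2 0.84, adjusted p = 0.165, and Mt1 0.97, adjusted p = 0.258). Mt1 also lost its call without WT 2, without Ocn-/- 1, without Ocn+/- 1 and without Ocn+/- 3. Mt2 shares 45.2% of its 50-base stretches with the antisense gene Gm45774 and with Gm61019. Gm45774 was credited with 2 to 15 counts in a testis, against 45 to 219 for Mt2.

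Beside the pair stood 8 other genes of the metal response, all tested in testes. Of these 1 was called, the zinc importer Slc39a10, which was lower (log2 fold change -0.5, adjusted p = 0.0118), where 9.94% of all genes were called, and the list's median was 0.18. In forebrain Slc39a10 was again the only one called, also lower (-0.26, adjusted p = 0.0281), a call lost without any single WT library, without Ocn+/- 2 or Ocn+/- 3 and with library size alone. Mtf1 itself had a log2 fold change of 0.44 (95% interval 0.04 to 0.83, adjusted p = 0.141), and the brain metallothionein Mt3 one of 0.43 (95% interval -0.15 to 1, adjusted p = 0.334).

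The receptor gene Nr3c1 (ENSMUSG00000024431.16) lies on the minus strand of chromosome 18. It was measured at 96.1 and 96.8 CPM in the WT testes, at 61.9, 88.3 and 65 CPM in Ocn+/- and at 76.9, 85.6 and 64.8 CPM in Ocn-/- testes. All 6 mutant libraries were below WT, with a log2 fold change of -0.39 (95% interval -0.68 to -0.09, adjusted p = 0.0854). It was called without the filter on low counts (adjusted p = 0.031), without Ocn+/- 2 (adjusted p = 0.0196) and without Ocn-/- 2 (adjusted p = 0.0467). In Ocn+/- alone it was called without that filter (adjusted p = 0.0409) and without Ocn+/- 2 (adjusted p = 0.0173). Tsc22d3 (ENSMUSG00000031431.14, chrX:139440091-139501408, minus strand) was lower in all 6 mutant libraries as well, at 51.8 and 58.8 CPM in WT and 30.6 to 49.4 CPM in the mutant testes, with a log2 fold change of -0.41 (95% interval -0.75 to -0.07, adjusted p = 0.114, and 0.0497 without the filter). Fkbp5 (ENSMUSG00000024222.18, chr17:28618058-28737521, minus strand) stood at 192 and 156 CPM in WT, at 224, 155 and 219 CPM in Ocn+/- and at 206, 207 and 186 CPM in Ocn-/- testes, so that the groups overlapped, with a log2 fold change of 0.2 (95% interval -0.09 to 0.49, adjusted p = 0.379). Counting genes without overlap between mutant and WT testes, 5 of the 10 had all mutants below (13.6% of all genes tested) and 1 had all above (12.5%).

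Ddit4 (ENSMUSG00000020108.5, chr10:59785491-59788492, minus strand) did not differ beyond its spread in testes, where it was measured at 71.7 and 83.3 CPM in WT and at 58.4 to 92.3 CPM in the mutants (log2 fold change -0.05, 95% interval -0.38 to 0.29, adjusted p = 0.879). Cdkn1a (ENSMUSG00000023067.15, chr17:29309936-29319701, plus strand) was scarce there, with 34 to 95 counts in a library. Its WT testes, at 5.44 and 12 CPM, enclosed 5 of the 6 mutant values, which ran from 4.3 to 7.82 CPM (log2 fold change -0.42, 95% interval -1.05 to 0.22, adjusted p = 0.393). Without WT 2 its value was 0.28.

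**Figure D2:**
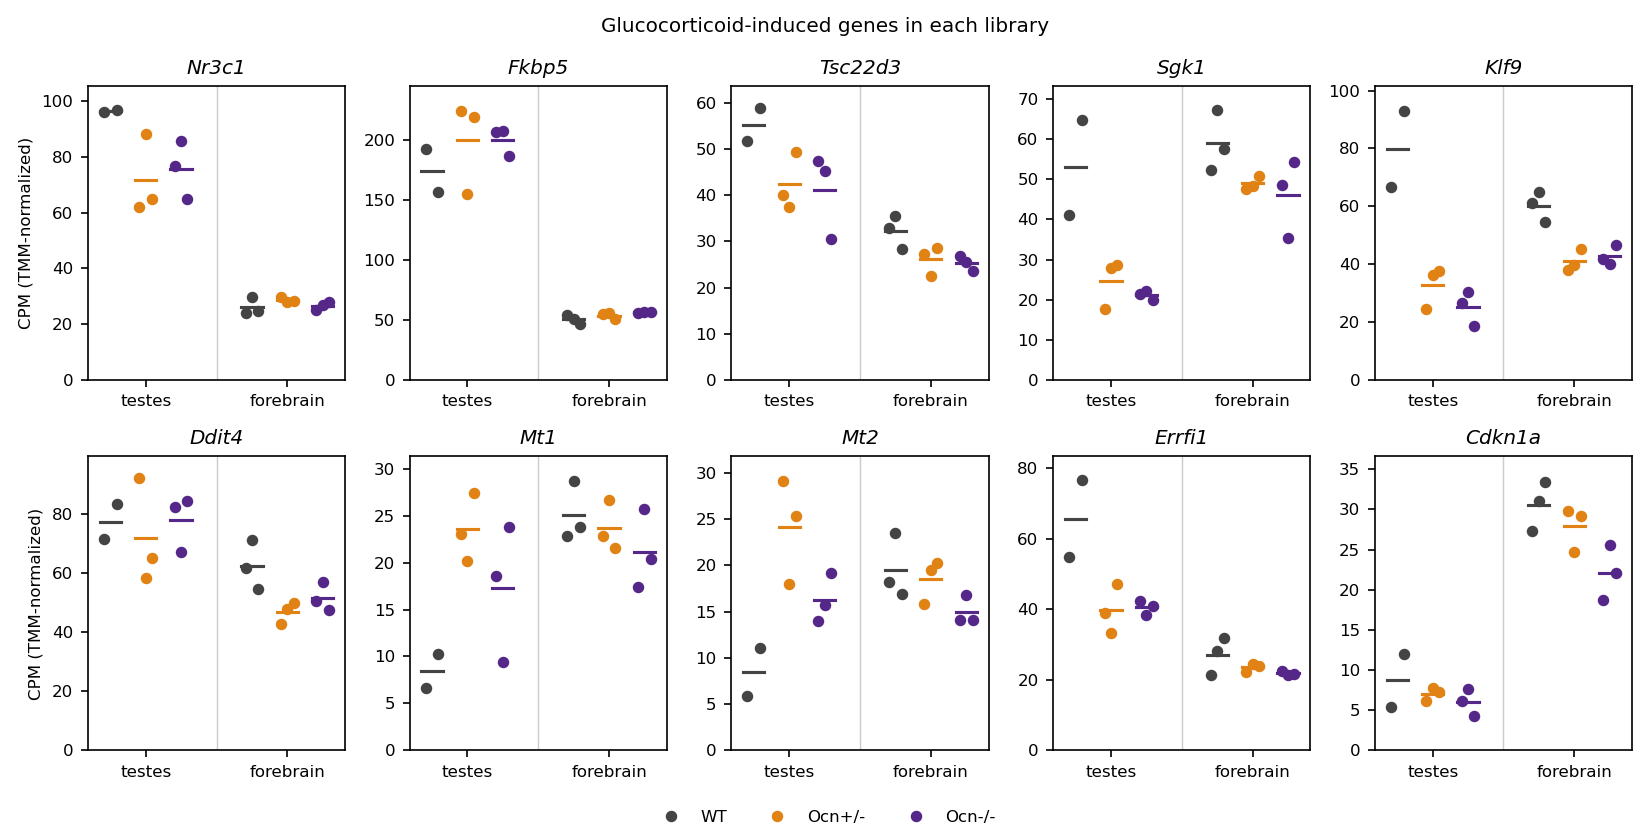
TMM-normalized CPM of the 10 genes in every library, with 1 panel per gene, points for libraries, horizontal lines for group means, and WT in grey, Ocn+/- in orange and Ocn-/- in purple. In testes all mutant libraries lay below WT for Nr3c1, Tsc22d3, Sgk1, Klf9 and Errfi1 and above WT for Mt2, and in forebrain they lay below WT for Klf9.

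In forebrain Klf9 again had the lowest fold change of the 10. The only genes called among the 10 were Klf9 and Ddit4, both lower with the mutant genotypes averaged, where 8.68% of all 16076 genes were called, 5.39% as lower. The same 2 were called without WT 3, which lowered the share of all genes called to 1.95%, with 1.52% lower. The median log2 fold change of the 10 genes was -0.26, against 0.01 over all genes. Of all calls 37.9% were higher, and 64.6% were when libraries were scaled by size alone. Ocn+/- forebrains alone gave the same 2 calls (background 3.89%), and Ocn-/- forebrains gave Klf9 alone (background 4.85%). The Ddit4 call in Ocn+/- was lost in 6 of 16 alternatives, among them without WT 1 or WT 2 and without any single Ocn+/- library (adjusted p = 0.0677 to 0.153). The Klf9 call in Ocn-/- was lost without WT 2 (adjusted p = 0.0578), without Ocn-/- 2 (adjusted p = 0.0632) and with library size alone (adjusted p = 0.0744).

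Klf9 was measured at 61.2, 64.9 and 54.6 CPM in WT forebrains, at 37.9, 39.7 and 45.3 CPM in Ocn+/- and at 41.8, 40.1 and 46.7 CPM in Ocn-/- forebrains. No mutant library reached the lowest WT library, a pattern found in this direction in 8.57% of the genes tested and in 1 of the 10. Without WT 3 it was found in 11.1% of genes and in 3 of the 10, Klf9, Tsc22d3 and Ddit4. The log2 fold change was -0.53 (SE 0.0913, adjusted p = 0.00159), or 1.44-fold lower, and -0.59 (adjusted p = 0.00374) without WT 3. Ddit4 stood at 61.8, 71.3 and 54.6 CPM in WT, at 42.9, 47.8 and 49.8 CPM in Ocn+/- and at 50.6, 56.9 and 47.6 CPM in Ocn-/- forebrains. Here 1 Ocn-/- library exceeded the lowest WT library, which was WT 3. The log2 fold change was -0.35 (SE 0.0943, adjusted p = 0.0258). Its call was lost without WT 1 (-0.36, adjusted p = 0.0659) and without WT 2 (-0.25, adjusted p = 0.178).

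Sgk1 was measured at 52.3, 67.3 and 57.5 CPM in WT forebrains and at 35.3 to 54.3 CPM in the mutants, a log2 fold change of -0.31 (95% interval -0.56 to -0.07, adjusted p = 0.105). It was called without the filter on low counts (adjusted p = 0.0246) and without Ocn-/- 3 (adjusted p = 0.0298). Tsc22d3 stood at 32.8, 35.6 and 28.3 CPM in WT and at 22.4 to 28.6 CPM in the mutants, -0.33 on the log2 scale (95% interval -0.56 to -0.11, adjusted p = 0.062). Cdkn1a was at 27.3, 31 and 33.4 CPM in WT, at 24.7 to 29.8 CPM in Ocn+/- and at 18.7, 25.6 and 22.1 CPM in Ocn-/- forebrains. For this gene the Ocn-/- group came nearest to a call (log2 fold change -0.45, SE 0.135, adjusted p = 0.0572), whereas Ocn+/- gave -0.12 (adjusted p = 0.654). The Ocn-/- value was called by DESeq2 (adjusted p = 0.0353), without the filter (adjusted p = 0.0243) and with the replicate number as a block (adjusted p = 0.0423), and it was -0.39 with an adjusted p of 0.207 without WT 3. For the remaining 5 genes the 6 mutant libraries together overlapped with WT. In Ocn-/- forebrains alone Fkbp5 had a log2 fold change of 0.15 (adjusted p = 0.35) and Mt2 one of -0.38 (adjusted p = 0.15). For Errfi1 the overlap rested on WT 1, at 21.4 CPM. None of the 5 was called. Nr3c1 had a log2 fold change of 0.08 (95% interval -0.14 to 0.3), Fkbp5 one of 0.12 (-0.05 to 0.29), Errfi1 one of -0.24 (-0.49 to 0.01), Mt1 one of -0.16 (-0.43 to 0.11) and Mt2 one of -0.23 (-0.51 to 0.04).

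Both mutant genotypes were also compared with each other, since both had Ocn-/- mothers and differ in the pup's own alleles, while their sires and litters are not given in the sources used here. By edgeR 0 of the 10 genes were called in either organ, and 1 in each had an unadjusted p under 0.05. DESeq2 called 0 of the 10 as well. Over all genes edgeR called 0% in testes, where 1881 had an unadjusted p under 0.05 and DESeq2 called 70, and 0.00622% in forebrain, where 1 gene was called, 515 had an unadjusted p under 0.05 and DESeq2 called 5. Without the filter on low counts edgeR called 252 and 34 genes, and without the second Ocn+/- testis it called 47 in testes. In testes the gene was Mt2, with a log2 fold change of -0.57 in Ocn-/- against Ocn+/- (95% interval -1.06 to -0.07, adjusted p = 0.379). In forebrain it was Cdkn1a, with -0.34 (95% interval -0.61 to -0.06, adjusted p = 0.999). The 95% interval of this difference for Klf9 was -0.84 to 0.08 (testes) and -0.16 to 0.29 (forebrain), and for Sgk1 it was -0.65 to 0.21 (testes) and -0.37 to 0.19 (forebrain).

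Whether the change against WT itself differed between the organs was tested in the joint fit, as the change in testes minus that in forebrain. For 4 of the 10 genes it did, while 2.96% of all genes were called. The difference was -0.96 for Klf9 (SE 0.21, adjusted p = 0.0153), which fell in both organs, and -0.91 for Sgk1 (SE 0.234, adjusted p = 0.0378), which was called in testes and not in forebrain. It was 1.44 for Mt2 (SE 0.289, adjusted p = 0.0102) and 1.4 for Mt1 (SE 0.345, adjusted p = 0.0342). Without the third WT forebrain only Mt2 was called among the 10 (1.53, adjusted p = 0.0155, background 1.54%), and Klf9 had an adjusted p of 0.053. Mt2 was also the gene left when the second WT testis was left out, where Klf9 had -0.7 (adjusted p = 0.202), and without the first WT testis neither Mt1 nor Mt2 was called (adjusted p = 0.219 and 0.115). The calls of Mt1 and Sgk1 were each lost in 10 of 23 alternatives.

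**Figure D3:**
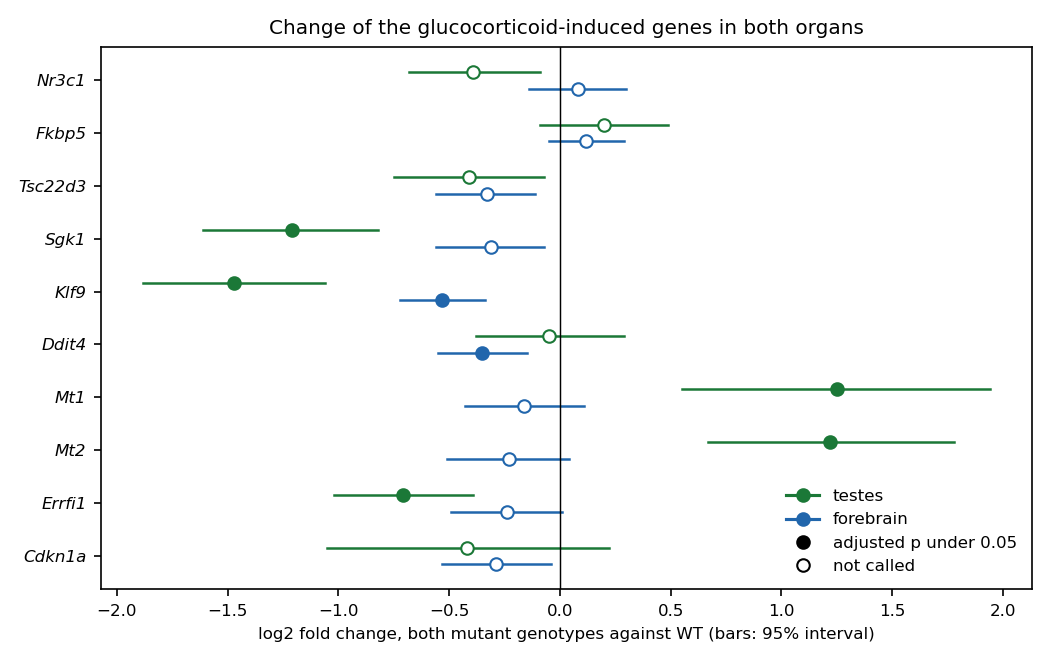
Log2 fold change of both mutant genotypes against WT for each gene in testes (green) and forebrain (blue), with 95% intervals as bars and filled points for an adjusted p under 0.05. In testes the filled points are Sgk1, Klf9 and Errfi1 below 0 and Mt1 and Mt2 above it, and in forebrain Klf9 and Ddit4 below 0.

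A wider list of 36 other genes known to be induced by glucocorticoids was examined in the same fits. In testes 34 could be tested, of which 10 were lower and 2 higher in the mutants (9.94% of all genes were called), with a median log2 fold change of -0.45. Among those that fell were Per1, a clock gene with a response element of its own (-1.73, adjusted p = 9.33e-07), the transcription factor Cebpb (-1.18, adjusted p = 0.00176), Pdk4, which blocks pyruvate oxidation (-1.31, adjusted p = 0.00384), and Klf15, which controls amino acid catabolism (-1.17, adjusted p = 0.0113). Per1 stood at 141 and 155 CPM in WT testes and at 31.6 to 53.8 CPM in the mutants. Those that rose were the lysophospholipid transporter Mfsd2a (0.97, adjusted p = 0.0176) and Angptl4, an inhibitor of lipoprotein lipase (1.04, adjusted p = 0.0306). With either WT testis left out, which leaves 1 WT library, fewer genes of the list were called, and fewer of all genes. In forebrain 7 of 29 were lower and 1 was higher (8.68% of all genes were called), with a median of -0.27. The lower ones included Hif3a (-1.88, adjusted p = 1.03e-05), the cell cycle inhibitor Cdkn1c (-0.69, adjusted p = 0.000185), Per1 (-0.55, adjusted p = 0.0055) and glutamine synthetase, Glul (-0.32, adjusted p = 0.0109). The higher one was again Angptl4 (1.3, adjusted p = 0.00217). Without WT 3, 4 of 30 were lower and 1 was higher (1.95% of all genes were called). Without WT 2, 4 genes of the list were called, and 779 genes in all.

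Genes that glucocorticoids repress gave few values, since 6 of 13 could be tested in each organ. For this and the following lists, the share of all genes called was 9.94% in testes and 8.68% in forebrain. In testes 1 was called, Ptgs2, the inducible cyclooxygenase, which was lower (-2.49, adjusted p = 0.0358). In forebrain edgeR and DESeq2 called 0 of 6, and 1 had an unadjusted p under 0.05. Of the chaperones and coregulators of the receptor, 18 were tested in each organ. In testes the chaperones Ptges3 (-0.42, adjusted p = 0.0435) and Hsp90aa1 (-0.37, adjusted p = 0.044) were lower. In forebrain edgeR called 0 of these 18, DESeq2 called 2, and 5 had an unadjusted p under 0.05. Of the genes for receptors and hormone supply, 6 were tested in each organ. In Ocn+/- testes edgeR called 1, Hsd11b2, which was higher (0.79, adjusted p = 0.0415), a call that was lost without WT 1, WT 2, Ocn+/- 1 or Ocn+/- 3 and with the replicate number as a block. With the mutants averaged edgeR called 0 in testes, where 2 had an unadjusted p under 0.05 and DESeq2 called 1, and 0 in forebrain, where both of these counts were 0. With the mutants averaged Hsd11b2 had a log2 fold change of 0.63 in testes (95% interval 0.2 to 1.07, adjusted p = 0.0608), and Nr3c2 had -0.24 (-1.16 to 0.68) in testes and -0.02 (-0.3 to 0.25) in forebrain.

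Since several of the 10 genes answer to other signals, those signals' own target genes were counted too. Genes induced by low oxygen fell in both organs, 12 of 14 in testes with a median log2 fold change of -1.01 and 8 of 13 in forebrain with a median of -0.58, where 9.94% and 8.68% of all genes were called. Fewer were called in testes with either WT testis left out, where fewer of all genes were called too. In forebrain 8 of 13 were called without WT 3, where 1.95% of all genes were called. In testes they were led by Bnip3 (-1.67, adjusted p = 1.82e-07), a mitophagy receptor, and the glycolytic enzymes Ldha (-1.51) and Pgk1 (-1.54). In forebrain they were led by the glucose transporter Slc2a1 and by Vegfa (each -1.19, adjusted p = 3.89e-07). Of the immediate-early genes, 3 of 14 fell in testes, Fosl2 (-1.56), Junb (-1.9) and Nr4a1 (-1.89), and 1 of 14 in forebrain, Jun (-0.58). Without the third Ocn+/- library of the organ, 7 were called in testes and 5 in forebrain, where 1049 and 1121 genes in all were called. Targets of p53 were split in testes, with 2 of 16 higher, Phlda3 (1.17) and Trp53 itself (0.52), and 3 lower, Btg2 (-0.76), Trp53inp1 (-0.91) and Plk2 (-0.43), and in forebrain 2 of 15 were higher, Aen (0.41) and Zmat3 (0.48), with 1 called without WT 2 or without WT 3. Without WT 2 in testes all calls among p53 targets, metal response genes, glucocorticoid-repressed genes, chaperones and coregulators, paralogs and partners, and thyroid hormone genes were lost. Without WT 1 the calls among metal response genes, repressed genes, chaperones and coregulators, and thyroid hormone genes were lost, and fewer p53 targets were called. Each of these fits left 1 WT testis, and fewer of all genes were called in them.

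Of the paralogs and partners of the 10 genes, 17 were tested in each organ, and 3 were called in each, all lower, with medians of -0.04 in testes and -0.05 in forebrain. Beside Egfr, Klf13, a relative of Klf9, was lower in testes (-0.55, adjusted p = 0.00545), as was Klf15. In forebrain the relatives of Cdkn1a were lower, Cdkn1c and Cdkn1b (-0.41, adjusted p = 0.00587), and so was Tsc22d1 (-0.25, adjusted p = 0.0231). Of genes tied to thyroid hormone, which also induces Klf9, Hr was higher in testes (1.03, adjusted p = 0.0447), 1 of 7 tested, and in forebrain edgeR called 0 of 8, DESeq2 called 1 and 2 had an unadjusted p under 0.05. Without WT 3, edgeR called 1 paralog or partner in forebrain rather than 3, where 1.95% of all genes were called.

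**Figure D4:**
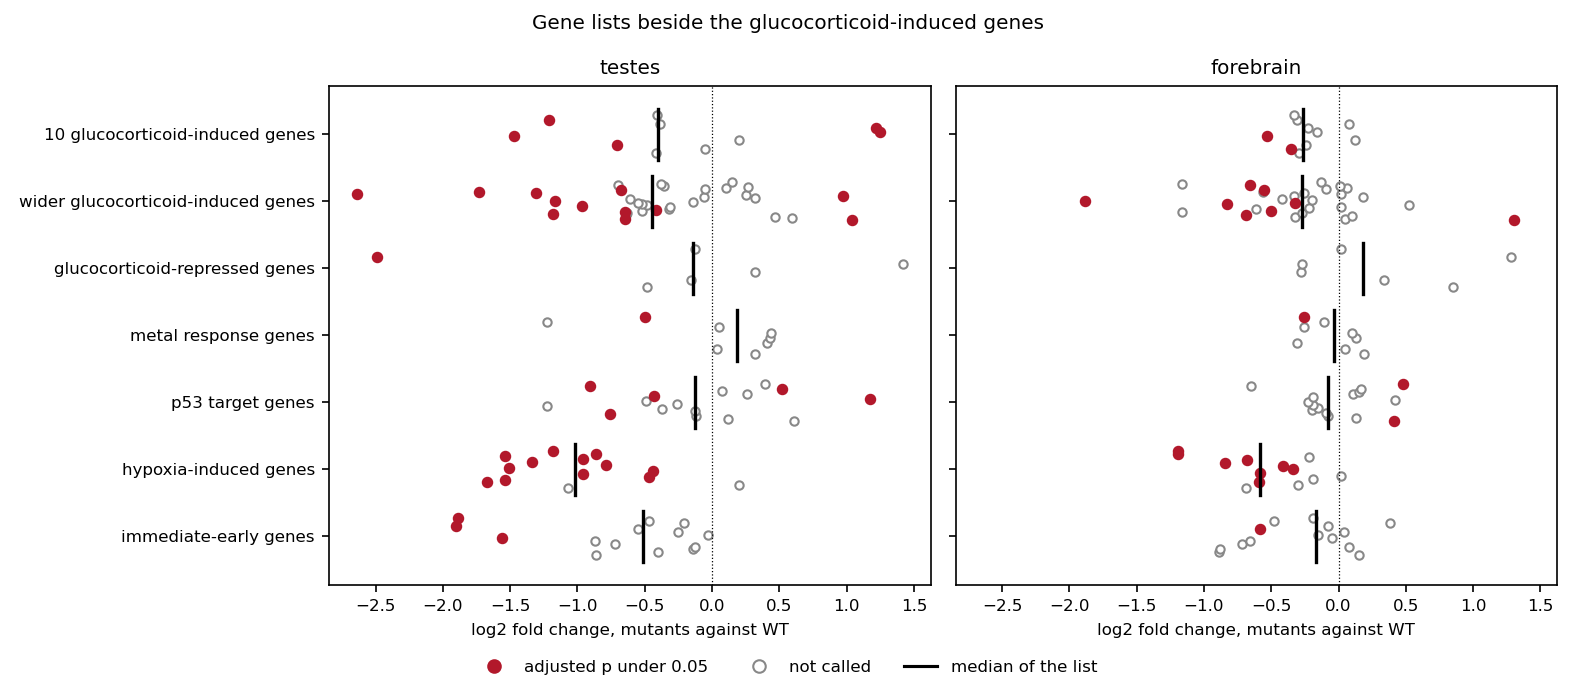
Log2 fold change of the mutants against WT for each gene of 7 lists in testes (left) and forebrain (right), with filled points for an adjusted p under 0.05 and a black line at the median of each list. The hypoxia-induced list has the lowest median in both organs, and Mt1 and Mt2 are the filled points above 0 in the top row of testes.

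Marker sums of several cell types differed between mutant and WT testes alongside these genes. The calls stand beside 9.94% of all genes called in testes and 8.68% in forebrain. Endothelial markers summed to 558 to 570 CPM in WT, 356 to 420 CPM in Ocn+/- and 329 to 366 CPM in Ocn-/- testes, and 5 of 6 were called lower. Neutrophil markers summed to 41 to 66.9 CPM in WT, 5.05 to 14.2 CPM in Ocn+/- and 3.44 to 10.4 CPM in Ocn-/- testes, with 4 of 5 tested called lower. Leydig cell markers, from the steroid-producing cells of the testis, summed to 1870 to 1980 CPM in WT, 910 to 1470 CPM in Ocn+/- and 928 to 1370 CPM in Ocn-/- testes, with 1 of 7 called lower. Erythroid markers varied within genotypes, from 2600 to 6860 CPM in WT and from 865 to 3940 CPM in the mutants. Sertoli cell markers, at 1780 to 1990 CPM in WT and 1720 to 2650 CPM in the mutants, overlapped, and 1 of 7 was higher. Of the smooth muscle markers 1 of 5 was lower, and of the macrophage markers 1 of 6 was higher. Markers of the adrenal cortex, the source of corticosterone, summed to 27.2 to 46.3 CPM in WT and 7.65 to 32.3 CPM in the mutant testes, with Cyp11b2 at 0 throughout. These ranges overlapped, and of the 4 markers 2 were tested and 0 were called. The part of these cell types in the changes of Klf9, Sgk1, Errfi1, Mt1 and Mt2 was not tested. In forebrain neutrophil markers summed to 0.335 to 2.99 CPM. There 2 of 6 endothelial and 2 of 5 tested erythroid markers were lower, and 2 of 6 radial glia and astrocyte markers and 1 of 6 oligodendrocyte lineage markers were higher. Of the neuronal and the macrophage and microglia markers 1 each was higher, and of the hippocampus and cortex region and the smooth muscle markers 1 each was lower. Without WT 3, where 1.95% of all genes were called, 1 erythroid, 1 radial glia and astrocyte and 1 macrophage and microglia marker were called. The other calls were lost. Endothelial markers summed to 139 to 168 CPM in WT and 111 to 162 CPM in the mutants, and erythroid markers to 522 to 719 CPM and 356 to 599 CPM. Radial glia and astrocyte markers summed to 775 to 888 CPM in WT, 983 to 1020 CPM in Ocn+/- and 850 to 1110 CPM in Ocn-/- forebrains. Choroid plexus markers summed to 585 to 752 CPM in WT, 584 to 877 CPM in Ocn+/- and 330 to 542 CPM in Ocn-/- forebrains, with 1 of 6 called lower in Ocn-/-, a call that was lost without WT 3. Markers of hippocampus and cortex regions summed to 1130 to 1500 CPM in WT and 952 to 1180 CPM in the mutants. The part of these cell types in the changes of Klf9 and Ddit4 was not tested.

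**Figure D5:**
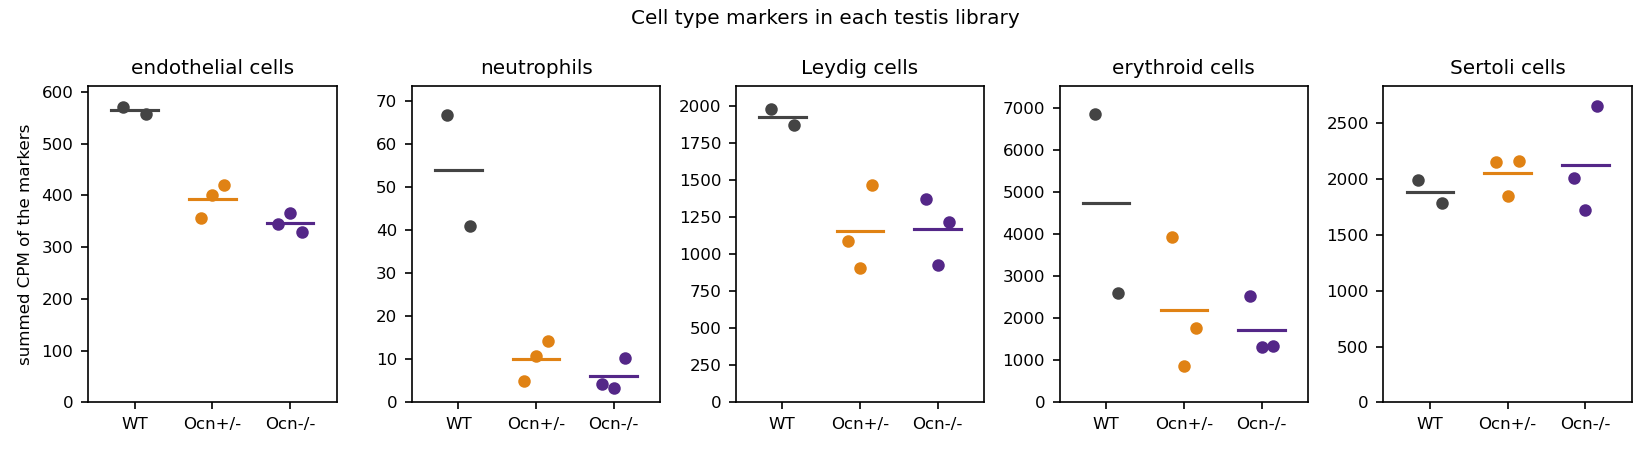
Summed CPM of the marker genes of 5 cell types in each testis library, with horizontal lines for group means, by genotype. Endothelial, neutrophil and Leydig cell markers lay higher in both WT testes than in any mutant testis, and Sertoli cell markers overlapped.

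The genes whose pattern over the 17 libraries was most like that of each gene were sought among 10682 genes with at least 5 CPM in both organs, by Pearson's r of log2 CPM centred within each organ. The libraries of a genotype group together, so these values describe shared differences between groups as much as shared variation within them. Klf9 was most like Mturn (r = 0.96), Khdrbs3 (0.93) and Sgk1 (0.93), and Sgk1 in turn was most like Klf9 and Armcx6 (0.92). Mt1 was most like Snrpd3 (0.92), and Mt2 most like Rbm15b (0.9). Nr3c1 was most like Glrb (0.91), Tsc22d3 most like Neu1 (0.88) and Cdkn1a most like Fmo1 (0.87). Ddit4 found no gene above 0.75, reached with Arfrp1.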

How the data were processed

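RNA from testes and forebrain was made into libraries after poly-A selection and sequenced. Per the submitters' processing notes, reads were trimmed with Trim Galore 0.6.6 and assigned to genes with STAR 2.7.8a and RSEM 1.3.3 on GRCm39. The authors deposited 1 table of RSEM expected counts for 55359 genes in 17 libraries. The counts were not normalized. In 9625 genes at least 1 value was not whole, because RSEM divides reads that match several genes, and values were rounded here to whole numbers. The release of the annotation and the use of strand in counting are not given in the sources used here.

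Of the gene identifiers, 54749 were found in GENCODE vM39, from which symbols, positions and exon lengths were taken. Each organ was fitted with all its genotypes in edgeR 4.0.16 (R 4.3.3, TMM, filterByExpr, robust quasi-likelihood test), and all 17 libraries in a joint fit for differences between organs. Adjusted p-values are Benjamini-Hochberg values over all genes tested (threshold 0.05), and intervals are 95%. "Mutants" means the mean of Ocn+/- and Ocn-/-. CPM used the TMM library sizes, and CPM per kb divides by the length of all exons of a gene. The scripts were tested on simulated data.

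The members, lists and tests were chosen with earlier results of these data known. All 10 members were named, and from each other list the genes past the threshold in the mutants, at most 4 in each direction by smallest p. Nr3c2, Hsd11b1, Hsd11b2, Mt3 and Mtf1 were named whatever their test, and for likeness at most 3 genes per member. One result that these rules select is not reported here. Alternatives were upper quartile scaling, library size alone, DESeq2 1.42.0, no filter, at least 10 counts in every library, fits of only the genotypes compared, a replicate block, and each library left out in turn. Depth is given by totals, with a median of 7873891 in testes and 12920133 in forebrain.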

Additional observations from a re-analysis of the deposited data

Results flagged for a closer look

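The change in the mutants against WT differed between testes and forebrain for 4 of the 10 genes, by the interaction term of the joint fit (edgeR, Benjamini-Hochberg adjusted p), while 2.96% of all genes were called. The value, testes minus forebrain on the log2 scale, was -0.96 for Klf9, which fell in both organs, and -0.91 for Sgk1, which was called in testes only. It was 1.4 for Mt1 and 1.44 for Mt2, whose fitted values were above 0 in testes and below 0 in forebrain, where neither was called. Leaving out the second WT testis changed these to -0.7, -0.55, 1.76 and 1.98, and only Mt2 was then called. Without the third WT forebrain only Mt2 was called too, with adjusted p-values of 0.053 for Klf9, 0.0861 for Sgk1 and 0.063 for Mt1, while 1.54% of all genes were called.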

How the results depend on the processing

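Of 1680 recomputed fold changes of the 10 genes, 1566 kept their direction and their side of the threshold, 57 lost the call, 31 gained one and 26 changed sign, 24 of the latter with a library left out. No called fold change changed sign. Without the filter on low counts and with DESeq2, 5 of the 10 genes rather than 3 were called in Ocn-/- testes, and 3 and 2 rather than 1 in Ocn-/- forebrains, while the calls among all genes rose from 922 to 1763 and 1323 in testes and from 780 to 1502 and 1121 in forebrain. With library size alone, 1 of the 10 genes was called in Ocn+/- forebrains, 0 in Ocn-/- and 1 in the mutants. Among all genes 369, 643 and 1142 were then called. The wider list gave 4 in Ocn-/- and 5 in the mutants. Under that scaling Ddit4 lost its forebrain call (adjusted p = 0.144), and Ddit4 in testes was 0.03. The cause was not tested.

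With each library left out in turn, between 1 and 6 of the 10 genes were called in Ocn+/- testes, 1 to 4 in Ocn-/- testes and 2 to 6 in the mutants, the lowest counts without WT 2. The calls among all genes moved too, from 118 to 2019, 85 to 1559 and 125 to 2497. In forebrain the counts of the 10 genes were 1 to 2, 0 to 2 and 1 to 3 (183 to 830, 189 to 919 and 320 to 1527 among all genes), for the organ difference 1 to 5 and for testes against forebrain 9 to 10. The wider list ranged in testes from 1 to 10, 1 to 10 and 1 to 12, and in forebrain from 2 to 5, 3 to 8 and 4 to 9. Uncalled values that changed sign in testes were those of Ddit4 in Ocn+/- (-0.32 to 0.04), Ocn-/- (-0.08 to 0.14), the mutants (-0.14 to 0.08) and Ocn-/- against Ocn+/- (-0.01 to 0.35), and of Cdkn1a in Ocn+/- (-0.75 to 0.4), Ocn-/- (-0.98 to 0.17) and the mutants (-0.87 to 0.28). Between the mutant genotypes they were Nr3c1 (-0.02 to 0.26), Tsc22d3 (-0.15 to 0.13) and Errfi1 (-0.08 to 0.17) in testes, where Fkbp5, at 0, ranged from -0.15 to 0.11, and Sgk1 (-0.23 to 0.07) and Tsc22d3 (-0.14 to 0.02) in forebrain. In forebrain against WT they were Nr3c1 in Ocn-/- (-0.04 to 0.13) and Mt1 (-0.18 to 0.02) and Mt2 (-0.16 to 0.07) in Ocn+/-. For the organ difference they were Fkbp5 (-0.08 to 0.22) and Cdkn1a (-0.6 to 0.54).

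The samples share only replicate numbers: same-numbered libraries had deviations correlated by -0.09 to 0.09 in testes by -0.04 to 0.15 in forebrain and by 0.01 to 0.1 between the organs, where libraries of other numbers had -0.08 to 0.02. With the replicate number as a block, 4 rather than 5 of the 10 genes were called in mutant testes (Mt1 1.01, adjusted p = 0.0588). In Ocn-/- forebrains 2 rather than 1 were called (Cdkn1a -0.46, adjusted p = 0.0423), and for the organ difference 3 rather than 4. Among all genes the calls were 1170, 1140 and 504, rather than 1626, 780 and 526. Ddit4 in Ocn-/- testes was -0.01. At the depth of these libraries Mt1, Mt2 and Cdkn1a in testes rest on fewer than 100 counts in WT.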
